A study of Homo sapiens with 18 samples.

Results

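The genes described here are 5 inhibitors of cyclin-dependent kinases (CDKN1A, CDKN1B, CDKN1C, CDKN2C and CDKN2D), the D-type cyclins CCND1, CCND2 and CCND3, and the kinases CDK4 and CDK6. They are 10 of the 58051 gene identifiers in the count tables and were chosen by their symbols in the GENCODE release 29 annotation. Polyadenylated RNA of KBM7, a human line of chronic myelogenous leukaemia, was sequenced after 5 h of treatment. Cells received dCeMM-1 (titled Hit4), dCeMM-2 (Hit1), dCeMM-3 (Hit2) or dCeMM-4 (Hit8), each at 10 times its EC50 (a measure of potency), or THZ531 at 600 nM, and the control was the solvent DMSO. Each of the 6 groups had 3 libraries, and no genotype or agent other than these is named for any of them. By background knowledge, dCeMM-1 leads to degradation of RBM39, a splicing factor. The other 3 dCeMM compounds lead to degradation of cyclin K, which activates CDK12 and CDK13, and THZ531 binds these same kinases covalently. The THZ531 dose is not matched to the others, so its values stand beside theirs without a test. The line stands for 1 leukaemia, and nothing states that a group's 3 libraries stem from different cultures, so p-values measure only the spread between these libraries.

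D-type cyclins bind CDK4 or CDK6, and the complexes phosphorylate the retinoblastoma protein, which releases E2F factors and lets cells pass from G1 into S phase. The INK4 inhibitors, which include the products of CDKN2C (p18) and CDKN2D (p19), bind CDK4 and CDK6 and block their pairing with cyclin D. The Cip/Kip inhibitors from CDKN1A (p21), CDKN1B (p27) and CDKN1C (p57) bind cyclin-CDK complexes, above all those of CDK2, and also take part in assembling cyclin D complexes. CDKN1B is controlled largely at the protein level, and CDK6 and CCND2 are prominent in blood cells.

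Gene counts per library ranged from 4598576 in DMSO replicate 3 to 17943571 in dCeMM-4 replicate 2. Values are given on 2 scales. TMM-scaled CPM (counts scaled by the trimmed mean of M-values) compares a gene with the bulk of genes in the same library. The spike-in scale divides by the counts of synthetic ERCC and SIRV RNAs added to each sample. Spike-in counts were 0.429 to 0.585% of gene and spike-in counts in dCeMM-2 libraries, 0.471 to 0.611% in dCeMM-3, 0.195 to 0.290% in dCeMM-4, 0.416 to 0.591% in THZ531 and 0.155 to 0.191% in dCeMM-1 libraries, against 0.167 to 0.202% in DMSO libraries. Medians of all genes therefore differed between the scales: in the order dCeMM-1 to dCeMM-4 and THZ531 they were 0.10, -1.80, -1.96, -0.56 and -1.94 log2 against DMSO on the spike-in scale, and 0.028, -0.023, -0.15, 0.0054 and -0.095 log2 on the TMM scale. It is not stated whether equal spike-in went to equal cells or to equal RNA, and in bulk samples fewer cells and less RNA per cell cannot be told apart. All 9 markers listed for leukaemic blood cells were detected, with a summed level of 859 to 921 TMM-scaled CPM in dCeMM-2, 909 to 976 in dCeMM-3, 1321 to 1412 in dCeMM-4, 819 to 902 in THZ531 and 1491 to 1599 in dCeMM-1 libraries, against 1695 to 1830 in DMSO libraries. Of the 6 other lists, 5 had sums in dCeMM-2, dCeMM-3 and THZ531 libraries that lay above those in DMSO libraries. The T cell markers summed to 133 to 171 TMM-scaled CPM, against 63.2 to 69.0 with DMSO. The epithelial markers summed to 44.9 to 62.0, against 13.8 to 16.4. The B cell markers summed to 7.85 to 9.96, against 2.11 to 3.93 with DMSO. The fibroblast markers summed to 2.96 to 5.20, against 1.16 to 2.30 with DMSO. The liver markers summed to 0.636 to 3.45, against 0.289 to 0.470 with DMSO. The endothelial markers lay above DMSO (38.8 to 40.6) with dCeMM-3 and THZ531 (41.3 to 49.0). They lay below it with dCeMM-2 (33.3 to 36.0), dCeMM-4 (16.3 to 19.0) and dCeMM-1 (26.6 to 29.6). With dCeMM-4 the T cell, B cell, epithelial and liver sums lay above DMSO and the fibroblast sum overlapped with it. With dCeMM-1 the epithelial sum lay above DMSO, the T cell sum below it and the B cell, fibroblast and liver sums overlapped with it. CD3D, KRT8 and PECAM1 made up nearly all of the T cell, epithelial and endothelial sums. CD3G, MS4A1, KRT19, CDH5, VWF and ALB were at 0 in the median library, with highest values of 0.263, 0.0522, 0.0578, 0.0877, 0.175 and 0.223 CPM. The part of these shifts in the results below was not tested.

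The data show an uneven response inside this group of genes. CDKN1A rose on the TMM scale with all 5 compounds, by 1.27-fold with dCeMM-1, 17.1-fold with dCeMM-2, 1.79-fold with dCeMM-3, 4.27-fold with dCeMM-4 and 26.2-fold with THZ531, but fell with dCeMM-3 on the spike-in scale. CCND3 and CDK6 fell on the TMM scale with all 5, and on the spike-in scale with all but dCeMM-1. The TMM calls of CDK6 with dCeMM-3 and THZ531 and of CCND3 with dCeMM-1 and dCeMM-4 were lost under some other settings. With THZ531, CDK6 was at -0.18 (TMM) and -2.03 (spike-in) log2, near the medians of all genes (-0.095 and -1.94). CDKN1B fell 5.02-fold with dCeMM-3 on the TMM scale, while its values with dCeMM-2 and dCeMM-4 did not pass there. Of the 10 genes, all of which passed the filter on low counts, 2 were higher and 5 lower with dCeMM-1 than with DMSO on the TMM scale, 4 higher and 3 lower with dCeMM-2, 5 higher and 5 lower with dCeMM-3, 4 higher and 4 lower with dCeMM-4, and 4 higher and 5 lower with THZ531 (edgeR quasi-likelihood test, adjusted p below 0.05 over 15055 genes). The share of all genes past the same threshold was 31.2% with dCeMM-1, 78.4% with dCeMM-2, 81.0% with dCeMM-3, 68.3% with dCeMM-4 and 79.5% with THZ531. A call on its own thus says little about these genes with any compound other than dCeMM-1. The count with dCeMM-1 is limited too, because the genes were chosen with earlier results of these data known. Spike-in scaling left no gene of the 10 past the threshold with dCeMM-1 (4.14% of all genes were called), where 2 of the 10 had an unadjusted p below 0.05 in edgeR's test. It gave 1 higher and 7 lower with dCeMM-2 (84.5%), 0 higher and 9 lower with dCeMM-3 (84.9%), 3 higher and 5 lower with dCeMM-4 (54.3%), and 1 higher and 8 lower with THZ531 (86.0%). The median log2 change of the 10 genes and that of all genes lay within 0.1 of each other on each scale with dCeMM-2, dCeMM-3, dCeMM-4 and THZ531, and the 10 genes lay 0.29 (TMM) and 0.30 (spike-in) below all genes with dCeMM-1.

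**Figure D1:**
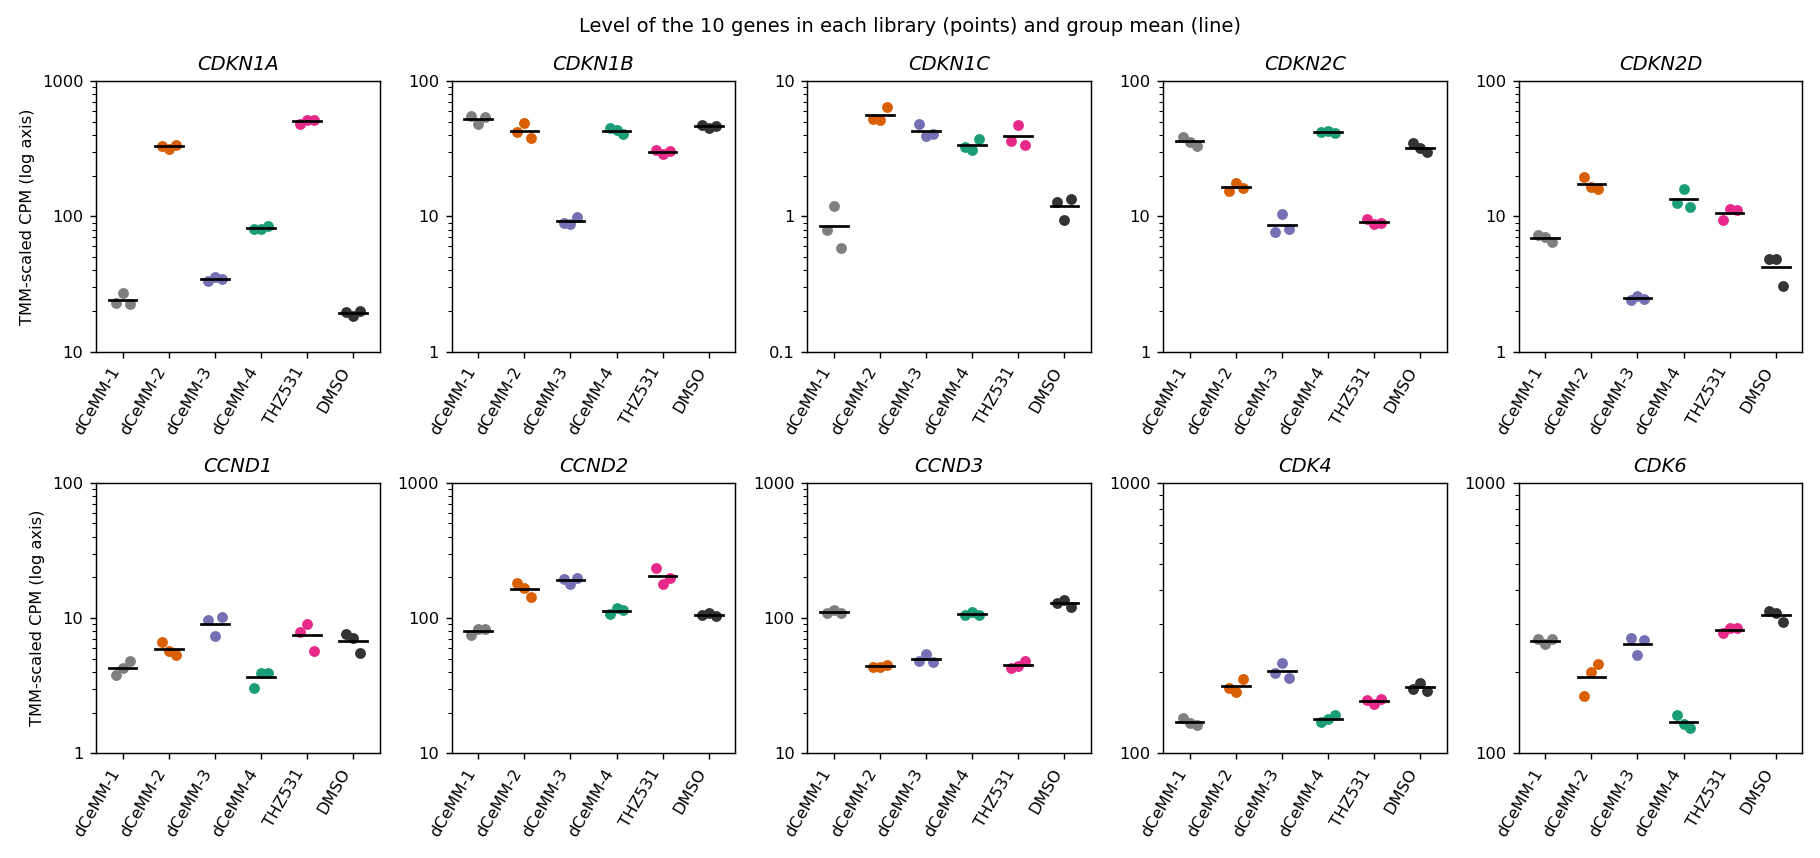
Level of each of the 10 genes in every library as TMM-scaled CPM (log axis), by group, with points for the 3 libraries and a line for their mean. CDKN1A libraries lie at 313 to 339.7 CPM with dCeMM-2 and 482 to 519.7 CPM with THZ531, against 18.4 to 20.1 CPM with DMSO, and CDKN1B libraries lie at 8.81 to 9.93 CPM with dCeMM-3, against 45.0 to 47.5 CPM with DMSO.

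Among the Cip/Kip inhibitors, CDKN1A (ENSG00000124762, chr6:36676460-36687339 of GRCh38) had 22.9, 27.4 and 22.7 in dCeMM-1, 334, 313 and 339.7 in dCeMM-2, 33.3, 35.7 and 34.5 in dCeMM-3, 81.0, 81.1 and 84.5 in dCeMM-4, 482, 511 and 519.7 in THZ531 libraries, against 19.7, 18.4 and 20.1 in DMSO libraries (TMM-scaled CPM). The treated libraries of every compound lay above all 3 DMSO libraries, narrowly with dCeMM-1 and widely with dCeMM-2 and THZ531. The log2 fold change was 0.34 (SE 0.084, adjusted p = 0.00211) with dCeMM-1, 4.09 (SE 0.080, adjusted p = 8.32e-28) with dCeMM-2 and 0.84 (SE 0.085, adjusted p = 9.74e-11) with dCeMM-3. It was 2.09 (SE 0.079, adjusted p = 1.69e-20) with dCeMM-4 and 4.71 (SE 0.081, adjusted p = 7.00e-30) with THZ531. With dCeMM-3 the direction depends on the scale, since CDKN1A rose by 0.84 log2 relative to other genes but fell by 0.99 log2 (SE 0.22, adjusted p = 1.49e-05) against the spike-in, with 19.1, 16.8 and 22.6 spike-in scaled CPM in dCeMM-3 libraries, against 34.0, 39.5 and 43.4 in DMSO libraries. With dCeMM-2, dCeMM-4 and THZ531 the rise held against the spike-in as well, at 2.30, 1.53 and 2.86 log2, and with dCeMM-1 the value of 0.39 (SE 0.22, adjusted p = 0.368) did not pass.

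CDKN1B (ENSG00000111276, chr12:12715058-12722371) followed another order. It had 55.2, 48.1 and 54.1 in dCeMM-1, 42.3, 48.9 and 37.7 in dCeMM-2, 8.88, 8.81 and 9.93 in dCeMM-3, 44.6, 43.5 and 40.6 in dCeMM-4, 31.1, 28.8 and 30.6 in THZ531 libraries, against 47.5, 45.0 and 46.6 in DMSO libraries (TMM-scaled CPM). The dCeMM-3 libraries stood apart below every other library, those of THZ531 lay below DMSO by a smaller step, and those of dCeMM-2 overlapped with DMSO. Those of dCeMM-1 lay just above DMSO and those of dCeMM-4 just below. Relative to DMSO it fell by 2.33 log2 (SE 0.10, adjusted p = 6.08e-20) with dCeMM-3, or 5.02-fold, and by 0.62 log2 (SE 0.088, adjusted p = 1.57e-07) with THZ531. The values of 0.18 (SE 0.083, adjusted p = 0.102), -0.10 (SE 0.086, adjusted p = 0.291) and -0.11 (SE 0.084, adjusted p = 0.244) log2 with dCeMM-1, dCeMM-2 and dCeMM-4 did not pass, and without dCeMM-2 replicate 2 the dCeMM-2 value of -0.20 did. The dCeMM-4 value was 0.012 with DESeq2-type size factors. Against the spike-in CDKN1B fell with dCeMM-2 (-1.87), dCeMM-3 (-4.14), dCeMM-4 (-0.68) and THZ531 (-2.46), where the medians of all genes were -1.80, -1.96, -0.56 and -1.94 log2.

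CDKN1C (ENSG00000129757, chr11:2883213-2885773), an imprinted gene in human, had 7 to 73 reads per library. It had 0.787, 1.19 and 0.586 in dCeMM-1, 5.27, 5.18 and 6.38 in dCeMM-2, 4.80, 3.94 and 4.05 in dCeMM-3, 3.23, 3.07 and 3.72 in dCeMM-4, 3.61, 4.74 and 3.39 in THZ531 libraries, against 1.27, 0.939 and 1.34 in DMSO libraries (TMM-scaled CPM). Libraries of dCeMM-2, dCeMM-3, dCeMM-4 and THZ531 all lay above DMSO and those of dCeMM-1 overlapped with it. The TMM log2 fold change was 2.28 (SE 0.24, adjusted p = 2.14e-10) with dCeMM-2, 1.92 (SE 0.24, adjusted p = 1.28e-08) with dCeMM-3, 1.55 (SE 0.24, adjusted p = 1.15e-06) with dCeMM-4 and 1.77 (SE 0.25, adjusted p = 1.01e-07) with THZ531. The rise passed on the spike-in scale with dCeMM-4 alone, at 1.00 (SE 0.34, adjusted p = 0.00768). Without DMSO replicate 2 that value was 0.91 and did not pass. The spike-in values with dCeMM-2, dCeMM-3 and THZ531 were 0.53 (95% interval -0.22 to 1.27), 0.12 (95% interval -0.63 to 0.87) and -0.056 (95% interval -0.82 to 0.71).

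Promoter sequence is shown for CDKN1A, CDKN1B and CDKN2D, 3 inhibitors with a single entry in the RefSeq promoter table that moved apart with dCeMM-3 on the TMM scale (0.84, -2.33 and -0.88 log2) and all fell on the spike-in scale (-0.99, -4.14 and -2.63 log2). Each line gives the 250 bases before the RefSeq start on GRCh38.p14, 5′ to 3′, with the GC box, GGGCGG or its reverse complement CCGCCC, in capitals. The CDKN1A stretch is chr6:36678464-36678713 on the plus strand, that of CDKN1B chr12:12717118-12717367 on the plus strand and that of CDKN2D chr19:10568980-10569229 on the minus strand.
CDKN1A: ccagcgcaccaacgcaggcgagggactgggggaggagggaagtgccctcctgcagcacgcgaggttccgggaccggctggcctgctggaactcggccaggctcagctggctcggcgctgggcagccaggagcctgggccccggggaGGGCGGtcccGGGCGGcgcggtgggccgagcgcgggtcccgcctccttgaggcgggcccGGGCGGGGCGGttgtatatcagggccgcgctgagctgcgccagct
CDKN1B: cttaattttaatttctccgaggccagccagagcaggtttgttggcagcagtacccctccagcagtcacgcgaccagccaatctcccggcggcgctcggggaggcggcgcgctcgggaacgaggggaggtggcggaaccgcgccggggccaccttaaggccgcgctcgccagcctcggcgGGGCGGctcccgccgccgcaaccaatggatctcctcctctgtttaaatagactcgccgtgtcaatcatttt
CDKN2D: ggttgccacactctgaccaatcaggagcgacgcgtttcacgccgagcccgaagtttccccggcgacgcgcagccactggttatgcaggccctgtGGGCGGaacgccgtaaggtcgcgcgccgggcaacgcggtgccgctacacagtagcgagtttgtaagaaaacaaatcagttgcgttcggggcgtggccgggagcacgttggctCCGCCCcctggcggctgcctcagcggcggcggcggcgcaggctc
The CDKN1A stretch holds 4 GC boxes, a pair of which overlap, and no match to the other 4 motifs searched. The CDKN1B stretch holds 1 GC box and 2 CCAAT motifs, and that of CDKN2D 2 GC boxes and 1 CCAAT motif. G and C make up 76.4%, 64.4% and 67.6% of the 3 stretches in that order. Of the 7 genes matched in the RefSeq promoter table, 6 hold a GC box, 2 a CCAAT motif, 2 the E-box, and 0 the TATA box or the cyclic AMP response element (counted on either strand). CDKN2C, CCND3 and CDK6 have 3, 3 and 2 entries there, and only the first entry of each was searched. Among 35116 promoter stretches of the same length, 42.6% hold the GC box, 32.0% CCAAT, 10.7% the TATA box spelled TATAAA, 6.34% the E-box spelled CACGTG and 1.65% the response element spelled TGACGTCA. The matches describe letters, not bound sites.

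On the TMM scale the INK4 genes CDKN2C and CDKN2D moved in opposite directions with dCeMM-2 and THZ531, both fell with dCeMM-3 and both rose with dCeMM-4. On the spike-in scale no compound moved them in opposite directions past the threshold. CDKN2C (ENSG00000123080, chr1:50960745-50974633) had 38.6, 35.6 and 33.4 in dCeMM-1, 15.4, 17.7 and 16.2 in dCeMM-2, 7.69, 10.4 and 8.02 in dCeMM-3, 42.3, 42.6 and 41.6 in dCeMM-4, 9.60, 8.86 and 8.91 in THZ531 libraries, against 34.7, 32.1 and 29.9 in DMSO libraries (TMM-scaled CPM). It fell with dCeMM-2, dCeMM-3 and THZ531, whose libraries all lay below DMSO, while dCeMM-4 libraries lay above it. The log2 fold changes were -0.98 (SE 0.10, adjusted p = 9.44e-11), -1.93 (SE 0.11, adjusted p = 2.34e-17) and -1.84 (SE 0.11, adjusted p = 9.91e-17) with dCeMM-2, dCeMM-3 and THZ531, and 0.37 (SE 0.087, adjusted p = 3.11e-04) with dCeMM-4. Against the spike-in the log2 fold changes were -2.74, -3.73 and -3.66 log2, and the dCeMM-4 value changed sign to -0.17 (95% interval -0.66 to 0.31) without passing. With dCeMM-1 it was 0.14 (SE 0.087, adjusted p = 0.255) on the TMM scale.

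CDKN2D (ENSG00000129355, chr19:10566462-10569059) had 7.28, 7.04 and 6.44 in dCeMM-1, 19.5, 16.4 and 15.8 in dCeMM-2, 2.43, 2.59 and 2.46 in dCeMM-3, 12.5, 15.9 and 11.8 in dCeMM-4, 9.36, 11.3 and 11.2 in THZ531 libraries, against 4.86, 4.85 and 3.07 in DMSO libraries (TMM-scaled CPM). Libraries of dCeMM-1, dCeMM-2, dCeMM-4 and THZ531 lay above DMSO and those of dCeMM-3 below it, and the shallow DMSO replicate 3 was the lowest of its group. CDKN2D rose with dCeMM-1 (0.59, SE 0.16, adjusted p = 0.00394), dCeMM-2 (1.92, SE 0.15, adjusted p = 1.50e-13), dCeMM-4 (1.55, SE 0.15, adjusted p = 3.77e-11) and THZ531 (1.21, SE 0.16, adjusted p = 1.87e-08). It fell with dCeMM-3, at -0.88 (SE 0.20, adjusted p = 2.01e-04). Spike-in scaling kept the rise with dCeMM-4 (1.06) and the fall with dCeMM-3 (-2.63), gave 0.20 (95% interval -0.36 to 0.75) with dCeMM-2, and turned the direction with THZ531 to -0.59 (SE 0.26, adjusted p = 0.0271). That last call was lost without THZ531 replicate 2 (-0.57), THZ531 replicate 3 (-0.56) or DMSO replicate 2 (-0.41).

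The D-type cyclins CCND2 and CCND3 diverged. CCND3 (ENSG00000112576, chr6:41934933-42050357) had 109, 115 and 108 in dCeMM-1, 43.5, 43.6 and 44.9 in dCeMM-2, 48.3, 54.6 and 47.1 in dCeMM-3, 106, 111 and 106 in dCeMM-4, 43.0, 44.6 and 48.4 in THZ531 libraries, against 129.6, 136 and 120.2 in DMSO libraries (TMM-scaled CPM). All treated libraries lay below all DMSO libraries, by a wide margin with dCeMM-2, dCeMM-3 and THZ531. The log2 fold changes were -1.55 (SE 0.073, adjusted p = 7.49e-19), -1.37 (SE 0.072, adjusted p = 5.63e-18) and -1.51 (SE 0.072, adjusted p = 9.21e-19) with these 3 compounds. Smaller falls of -0.22 (SE 0.067, adjusted p = 0.0135) and -0.26 (SE 0.068, adjusted p = 0.00101) were measured with dCeMM-1 and dCeMM-4. The dCeMM-1 call was lost without dCeMM-1 replicate 1 (-0.21), dCeMM-1 replicate 3 (-0.20) or DMSO replicate 2 (-0.18), and the dCeMM-4 call with DESeq2-type size factors (-0.14), which shift all genes by 0.12 log2 in that comparison. On the spike-in scale CCND3 fell by 3.33, 3.20 and 3.36 log2 with dCeMM-2, dCeMM-3 and THZ531 and by 0.82 log2 with dCeMM-4.

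CCND2 (ENSG00000118971, chr12:4273772-4305350) had 74.6, 83.0 and 83.4 in dCeMM-1, 182, 168 and 143 in dCeMM-2, 195, 179 and 199 in dCeMM-3, 107, 118 and 114 in dCeMM-4, 236, 178 and 197 in THZ531 libraries, against 105, 109.9 and 103 in DMSO libraries (TMM-scaled CPM). Its libraries lay above DMSO with dCeMM-2, dCeMM-3 and THZ531, below it with dCeMM-1, and overlapped with it with dCeMM-4. The log2 fold changes on the TMM scale were 0.64 (SE 0.087, adjusted p = 6.58e-08), 0.85 (SE 0.086, adjusted p = 1.07e-10) and 0.94 (SE 0.086, adjusted p = 1.08e-11) with dCeMM-2, dCeMM-3 and THZ531, and -0.40 (SE 0.087, adjusted p = 6.27e-04) with dCeMM-1. The same 3 rises were falls against the spike-in, of -1.15, -0.97 and -0.89 log2, each smaller than the fall of the median gene. With dCeMM-4 the values were 0.093 (95% interval -0.10 to 0.28) and, against the spike-in, -0.46 (95% interval -0.93 to -0.0030), and neither passed. The TMM value became 0.22 and passed with DESeq2-type size factors, and the spike-in value passed without dCeMM-4 replicate 2 (-0.62) or DMSO replicate 1 (-0.57). CCND2-AS1, an antisense gene that shares 126 exon bases with CCND2, held 2 reads over the 18 libraries. CCND2 also shares 989 exon bases with AC008012.1, a gene on the same strand that has no entry in the deposited counts.

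CCND1 (ENSG00000110092, chr11:69641087-69654474), the D-type cyclin of many epithelial cells, was low. It had 3.80, 4.27 and 4.84 in dCeMM-1, 6.61, 5.74 and 5.36 in dCeMM-2, 9.67, 7.36 and 10.2 in dCeMM-3, 3.05, 3.94 and 3.96 in dCeMM-4, 7.96, 9.03 and 5.68 in THZ531 libraries, against 7.69, 7.10 and 5.56 in DMSO libraries (TMM-scaled CPM). The dCeMM-1 and dCeMM-4 libraries lay below DMSO and the others overlapped with it. CCND1 fell with dCeMM-1 (-0.71, SE 0.17, adjusted p = 0.00163) and dCeMM-4 (-0.95, SE 0.18, adjusted p = 1.67e-05). It was higher with dCeMM-3 on the TMM scale (0.38, SE 0.16, adjusted p = 0.0301) and lower on the spike-in scale (-1.38, SE 0.26, adjusted p = 1.01e-07), and the TMM call was lost without dCeMM-3 replicate 1 (0.34), dCeMM-3 replicate 3 (0.29), DMSO replicate 2 (0.38) or DMSO replicate 3 (0.32). TMM values with dCeMM-2 and THZ531 were -0.24 (95% interval -0.62 to 0.14) and 0.090 (95% interval -0.27 to 0.45), and neither passed. On the spike-in scale CCND1 was lower with dCeMM-2 (-1.98), dCeMM-4 (-1.46) and THZ531 (-1.70), all past the threshold. The medians of all genes there were -1.80, -0.56 and -1.94 log2. With dCeMM-1 the spike-in value of -0.59 did not pass. CCND1 shares 497 exon bases with LTO1 on the opposite strand. The strand setting of the counting is not given in the sources used here, so how reads there were assigned is not known.

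Of the kinases, CDK4 (ENSG00000135446, chr12:57747727-57756013) had 135, 129.6 and 127 in dCeMM-1, 175, 168 and 188 in dCeMM-2, 198, 216 and 189.8 in dCeMM-3, 131, 134 and 138 in dCeMM-4, 158, 153 and 159.5 in THZ531 libraries, against 174, 183 and 170.0 in DMSO libraries (TMM-scaled CPM). The dCeMM-2 libraries overlapped with DMSO, all 3 dCeMM-3 libraries lay above it, and those of dCeMM-1, dCeMM-4 and THZ531 lay below it. CDK4 fell with dCeMM-1 (-0.43, SE 0.063, adjusted p = 3.61e-06) and dCeMM-4 (-0.38, SE 0.063, adjusted p = 2.53e-06). With dCeMM-3 it was higher on the TMM scale (0.19, SE 0.063, adjusted p = 0.00615) and lower on the spike-in scale (-1.64), and the TMM call was lost with no filter on low counts (0.11). With THZ531 it was -0.17 (SE 0.064, adjusted p = 0.0185), a call lost with DESeq2-type size factors (-0.0092), which shift all genes by 0.16 log2 in that comparison, and without THZ531 replicate 2 (-0.15) or DMSO replicate 2 (-0.13). With dCeMM-2 it was 0.0093 (95% interval -0.13 to 0.15) and, against the spike-in, -1.78 log2, where the median of all genes was -1.80. Of the exon bases of CDK4, 43.2% lie in TSPAN31 on the opposite strand. TSPAN31 had a TMM log2 fold change of 1.03, 1.08 and 0.97 with dCeMM-2, dCeMM-3 and THZ531, at 36.8 to 43.6 CPM in those libraries, against 17.9 to 21.6 CPM in DMSO libraries, and its part in the CDK4 counts was not tested.

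CDK6 (ENSG00000105810, chr7:92604921-92836594), which spans 231674 bases, had 265, 254 and 264 in dCeMM-1, 163, 201 and 213 in dCeMM-2, 266, 231 and 263 in dCeMM-3, 139, 128 and 125 in dCeMM-4, 278, 289.5 and 291 in THZ531 libraries, against 337, 329.9 and 306 in DMSO libraries (TMM-scaled CPM). All treated libraries lay below all DMSO libraries, with dCeMM-4 lowest. The log2 fold change was -1.31 (SE 0.077, adjusted p = 4.48e-16) with dCeMM-4, -0.76 (SE 0.076, adjusted p = 9.98e-11) with dCeMM-2, -0.36 (SE 0.075, adjusted p = 7.13e-05) with dCeMM-3, -0.31 (SE 0.075, adjusted p = 0.00145) with dCeMM-1 and -0.18 (SE 0.075, adjusted p = 0.0271) with THZ531. The THZ531 call was lost with DESeq2-type size factors (-0.026) and without THZ531 replicate 1 (-0.16), DMSO replicate 1 (-0.15) or DMSO replicate 2 (-0.17). The dCeMM-3 value was -0.18 and did not pass in a fit of those 2 groups alone. On the spike-in scale CDK6 fell by 2.54, 2.17, 1.89 and 2.03 log2 with dCeMM-2, dCeMM-3, dCeMM-4 and THZ531. With dCeMM-4 that is 1.33 log2 below the median gene.

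**Figure D2:**
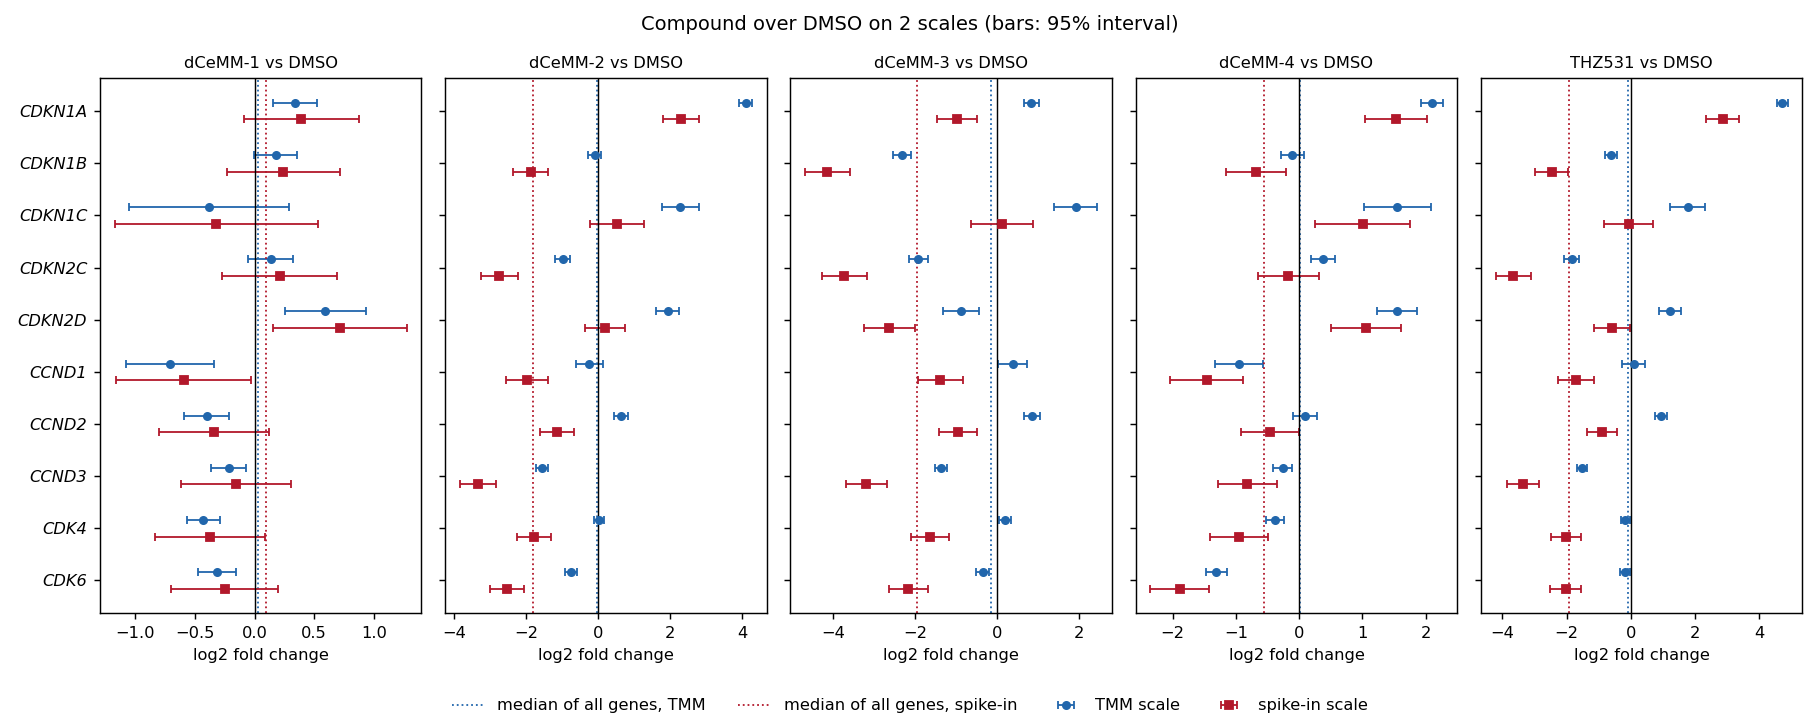
Log2 fold change of each gene over DMSO for the 5 compounds, on the TMM scale (circles) and the spike-in scale (squares), with 95% intervals and dotted lines at the median of all genes on each scale. CDKN1A stands at 4.09 (TMM) and 2.30 (spike-in) with dCeMM-2 and at 0.84 and -0.99 with dCeMM-3, and CCND2 changes sign between the scales with dCeMM-2, dCeMM-3 and THZ531.

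The 3 cyclin K degraders were compared with each other at the same multiple of their EC50, which made 3 pairs. On the TMM scale 4 of the 10 genes were higher and 4 lower with dCeMM-2 than with dCeMM-3 (43.1% of all genes were called, 4009 higher and 2475 lower, and with DESeq2-type size factors 3535 and 3350). The 4 higher genes were inhibitors: CDKN1A by 3.26 (95% interval 3.09 to 3.42, adjusted p = 1.67e-26), CDKN2D by 2.80 (95% interval 2.44 to 3.16, adjusted p = 5.77e-16), CDKN1B by 2.23 (95% interval 2.003 to 2.46, adjusted p = 9.39e-19) and CDKN2C by 0.94 (95% interval 0.69 to 1.20, adjusted p = 2.67e-08) log2. CDKN2D stood at 19.5, 16.4 and 15.8 CPM in dCeMM-2 libraries, against 2.43, 2.59 and 2.46 CPM in dCeMM-3 libraries. These 4 were also the calls on the spike-in scale (22.7% of all genes), at 3.29, 2.83, 2.27 and 0.99 log2. CDKN1C, the remaining inhibitor, differed by 0.36 (95% interval -0.046 to 0.77, adjusted p = 0.123) and did not pass. The lower genes were CCND1 at -0.62 (95% interval -0.99 to -0.25, adjusted p = 0.00281), CDK6 at -0.40 (95% interval -0.57 to -0.24, adjusted p = 4.17e-05), CCND2 at -0.21 (95% interval -0.40 to -0.030, adjusted p = 0.0391) and CDK4 at -0.18 (95% interval -0.32 to -0.047, adjusted p = 0.0176). The CCND2 call was lost without dCeMM-2 replicate 2 (-0.23), dCeMM-2 replicate 3 (-0.13), dCeMM-3 replicate 1 (-0.20) or dCeMM-3 replicate 3 (-0.18), and the CDK4 call without dCeMM-2 replicate 1 (-0.18), dCeMM-2 replicate 2 (-0.15) or dCeMM-3 replicate 2 (-0.13). CCND3 was at -0.18 (95% interval -0.35 to -0.016, adjusted p = 0.0533) and passed without dCeMM-3 replicate 3 (-0.22). No cyclin or kinase of the group passed against the spike-in, where CCND1 was at -0.60 (95% interval -1.16 to -0.041, adjusted p = 0.0775) and passed without dCeMM-3 replicate 2 (-0.82).

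Between dCeMM-2 and dCeMM-4, 7 genes were higher and 2 lower with dCeMM-2 on the TMM scale (77.4% of all genes called), and 1 and 7 with spike-in scaling (69.5%). The median of all genes was 0.057 log2 on the TMM scale and -1.15 log2 on the spike-in scale. CDKN1A was higher on both, with a 95% interval of 1.85 to 2.15 log2 on the TMM scale (adjusted p = 9.85e-22) and a difference of 0.77 (95% interval 0.31 to 1.24, adjusted p = 4.71e-04) against the spike-in. CCND3 and CDKN2C were lower on both, at -1.29 (95% interval -1.45 to -1.13, adjusted p = 1.06e-16) and -1.36 (95% interval -1.56 to -1.15, adjusted p = 2.12e-14) on the TMM scale. CDKN2D, CCND2, CDK4 and CDK6 were higher on the TMM scale, by 0.37, 0.54, 0.39 and 0.55. They were lower against the spike-in, at -0.87, -0.68, -0.83 and -0.65, each a smaller fall than that of the median gene. The CDKN2D call on the TMM scale was lost without dCeMM-2 replicate 1 (0.27), and the CDK6 call on the spike-in scale likewise (-0.51). The CDKN2D libraries of the 2 groups overlapped on the TMM scale. CDKN1B did not differ past the threshold on the TMM scale, at 0.012 (95% interval -0.17 to 0.20, adjusted p = 0.904). It was lower against the spike-in, at -1.19 (adjusted p = 1.65e-07), with groups that did not overlap. That value lay close to the median of all genes (-1.15). CDKN1C and CCND1 were higher on the TMM scale alone, by 0.73 (95% interval 0.32 to 1.13, adjusted p = 7.65e-04) and 0.71 (95% interval 0.30 to 1.11, adjusted p = 0.00103). Their spike-in values of -0.48 and -0.52 did not pass, but passed without dCeMM-4 replicate 1 (-0.66 and -0.79), and for CCND1 also without dCeMM-2 replicate 2 (-0.63).

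Between dCeMM-3 and dCeMM-4, 4 genes were higher and 5 lower with dCeMM-3 on the TMM scale (82.7% of all genes called), and 0 and 8 with spike-in scaling (70.7%). The median of all genes was 0.075 log2 on the TMM scale and -1.17 log2 on the spike-in scale. The 5 lower genes were CDKN2D (-2.43, 95% interval -2.79 to -2.07, adjusted p = 5.47e-15), CDKN2C (-2.30, 95% interval -2.52 to -2.08, adjusted p = 6.10e-20), CDKN1B (-2.22, 95% interval -2.44 to -1.997, adjusted p = 1.20e-19), CDKN1A (-1.26, 95% interval -1.42 to -1.10, adjusted p = 9.35e-17) and CCND3 (-1.11, 95% interval -1.27 to -0.96, adjusted p = 1.09e-15). All 5 were lower against the spike-in as well, at -3.70, -3.56, -3.46, -2.51 and -2.38 log2 in the same order. CCND1, CDK6, CCND2 and CDK4 were higher on the TMM scale, by 1.33, 0.96, 0.76 and 0.58. They stood at 0.076, -0.28, -0.50 and -0.69 on the spike-in scale, all above the median gene. The CCND2 fall there was lost at 12 degrees of freedom per gene, and without dCeMM-3 replicate 1 (-0.52), dCeMM-3 replicate 2 (-0.35), dCeMM-4 replicate 2 (-0.34) or dCeMM-4 replicate 3 (-0.45). CDKN1C differed by 0.37 (95% interval -0.048 to 0.78, adjusted p = 0.0745) on the TMM scale and was lower, at -0.88 (95% interval -1.51 to -0.26, adjusted p = 0.00356), on the spike-in scale. That fall was smaller than that of the median gene (-1.17).

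**Figure D3:**
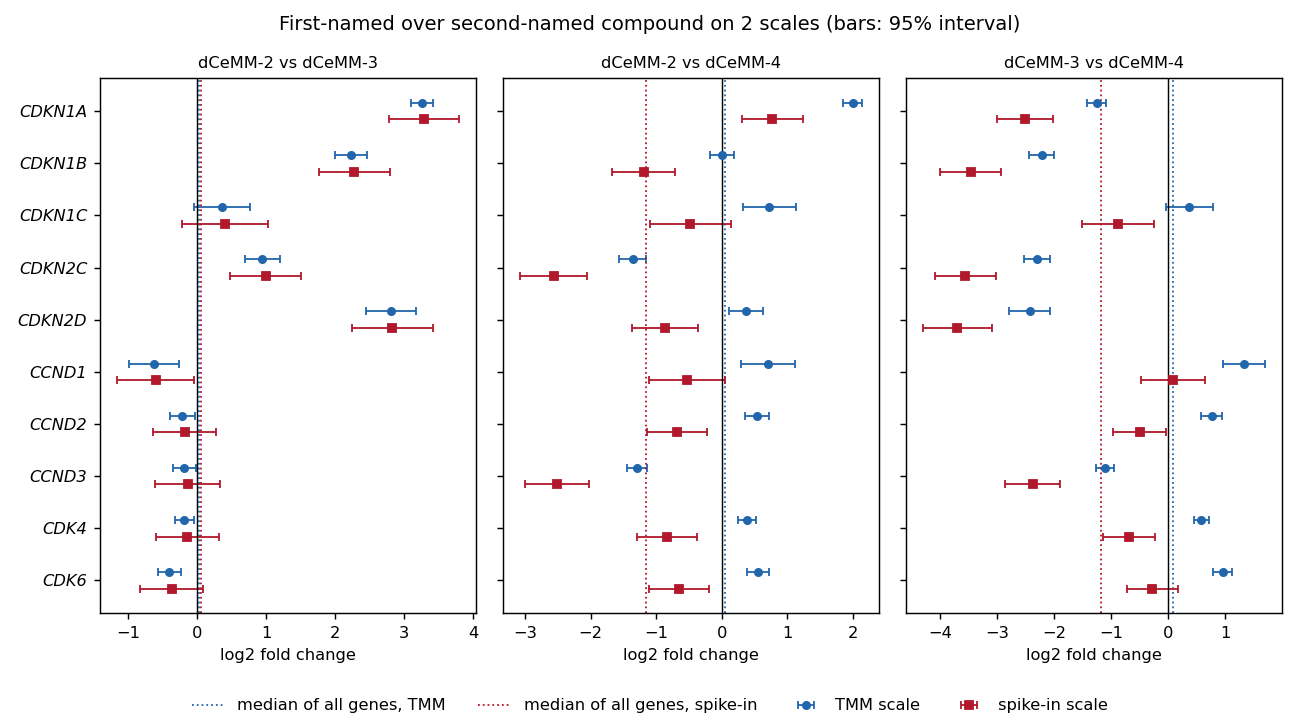
Log2 fold change of each gene for dCeMM-2 over dCeMM-3, dCeMM-2 over dCeMM-4 and dCeMM-3 over dCeMM-4, on the TMM scale (circles) and the spike-in scale (squares), with 95% intervals and dotted lines at the median of all genes. For dCeMM-2 over dCeMM-3 the scales nearly coincide, with CDKN1A at 3.26 and 3.29, CDKN2D at 2.80 and 2.83 and CDKN1B at 2.23 and 2.27.

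Ratios of 2 genes within a library do not depend on how libraries are scaled. The log2 ratio of CDKN1A to CDKN1B read counts was -1.27, -0.81 and -1.25 in dCeMM-1, 2.98, 2.68 and 3.17 in dCeMM-2, 1.91, 2.02 and 1.80 in dCeMM-3, 0.86, 0.90 and 1.06 in dCeMM-4, 3.95, 4.15 and 4.09 in THZ531 libraries, against -1.27, -1.29 and -1.21 in DMSO libraries. CDKN1A had fewer reads than CDKN1B in all dCeMM-1 and DMSO libraries and more in all others. The mean log2 difference from DMSO was 4.20 with dCeMM-2, 3.16 with dCeMM-3, 2.20 with dCeMM-4 and 5.32 with THZ531 (exact two-sided permutation p = 0.1 each, the smallest that 3 against 3 libraries allow, and 0.115 after adjustment over the 15 ratio tests), and 0.15 with dCeMM-1 (exact permutation p = 0.6, adjusted p = 0.643). With dCeMM-3 the TMM values behind it were -2.33 log2 for CDKN1B and 0.84 log2 for CDKN1A.

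The log2 ratio of CCND2 to CCND3 was -0.55, -0.47 and -0.38 in dCeMM-1, 2.06, 1.95 and 1.67 in dCeMM-2, 2.01, 1.71 and 2.08 in dCeMM-3, 0.0093, 0.089 and 0.11 in dCeMM-4, 2.46, 1.999 and 2.03 in THZ531 libraries, against -0.31, -0.30 and -0.22 in DMSO libraries. CCND3 led in dCeMM-1 and DMSO libraries, the pair was near parity with dCeMM-4, and CCND2 led with dCeMM-2, dCeMM-3 and THZ531. The differences from DMSO were -0.19, 2.17, 2.21, 0.35 and 2.44 in the order dCeMM-1 to dCeMM-4 and THZ531, all with groups that did not overlap (exact permutation p = 0.1 each, adjusted p = 0.115). The log2 ratio of CDK6 to CDK4 was 0.98, 0.97 and 1.05 in dCeMM-1, -0.10, 0.25 and 0.18 in dCeMM-2, 0.43, 0.10 and 0.47 in dCeMM-3, 0.088, -0.067 and -0.15 in dCeMM-4, 0.82, 0.92 and 0.87 in THZ531 libraries, against 0.96, 0.85 and 0.85 in DMSO libraries. It was nearer to parity with dCeMM-2, dCeMM-3 and dCeMM-4, with differences of -0.77, -0.55 and -0.93, and differed by 0.12 with dCeMM-1 (exact permutation p = 0.1 and adjusted p = 0.115 for all 4). With THZ531 it differed by -0.016 (exact permutation p = 0.7, adjusted p = 0.7).

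Levels per kilobase of exon allow genes to be set beside each other. The 3 CDKN1 genes together stood at 27.0 ± 0.435 TMM-scaled CPM per kb with dCeMM-1, 125 ± 2.80 with dCeMM-2, 16.3 ± 0.256 with dCeMM-3, 43.6 ± 0.244 with dCeMM-4 and 178 ± 6.25 with THZ531, against 23.3 ± 0.793 with DMSO (SD, n = 3 libraries each). CDKN1A made up 86.0% of the sum with dCeMM-2, 69.3% with dCeMM-3, 61.9% with dCeMM-4 and 93.1% with THZ531, while CDKN1B made up 69.2% with dCeMM-1 and 70.7% with DMSO. The sum of CDKN2C and CDKN2D was 15.4 ± 1.06 CPM per kb with dCeMM-1, 16.4 ± 1.13 with dCeMM-2, 4.28 ± 0.495 with dCeMM-3, 21.6 ± 1.59 with dCeMM-4 and 9.82 ± 0.603 with THZ531, against 12.5 ± 1.36 with DMSO. It was below DMSO with dCeMM-3 and THZ531 and above it with the other 3 compounds. CDKN2D held the larger share with dCeMM-2 (69.8%) and THZ531 (72.0%), where CDKN2C held 77.4% with DMSO. The summed D-type cyclins stood at 31.3 ± 1.14 in dCeMM-1, 31.8 ± 2.72 in dCeMM-2, 37.2 ± 1.16 in dCeMM-3, 35.1 ± 1.31 in dCeMM-4 and 37.9 ± 3.86 in THZ531 libraries, against 38.3 ± 1.98 with DMSO. CCND2 held 72.3%, 71.8% and 75.2% of them with dCeMM-2, dCeMM-3 and THZ531, and CCND3 held 61.2% with dCeMM-1, 52.8% with dCeMM-4 and 57.8% with DMSO. CDK4 exceeded CDK6 per kb in every group, with 79.9% of their sum with dCeMM-4 and 67.7% with DMSO. That order rests on the length of all annotated exons, 3168 bases for CDK4 and 12260 for CDK6. Before division by length, CDK6 averaged 324 and CDK4 175 TMM-scaled CPM with DMSO. Which exons these cells use was not tested. The sums per kb are relative to other genes in the library.

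**Figure D4:**
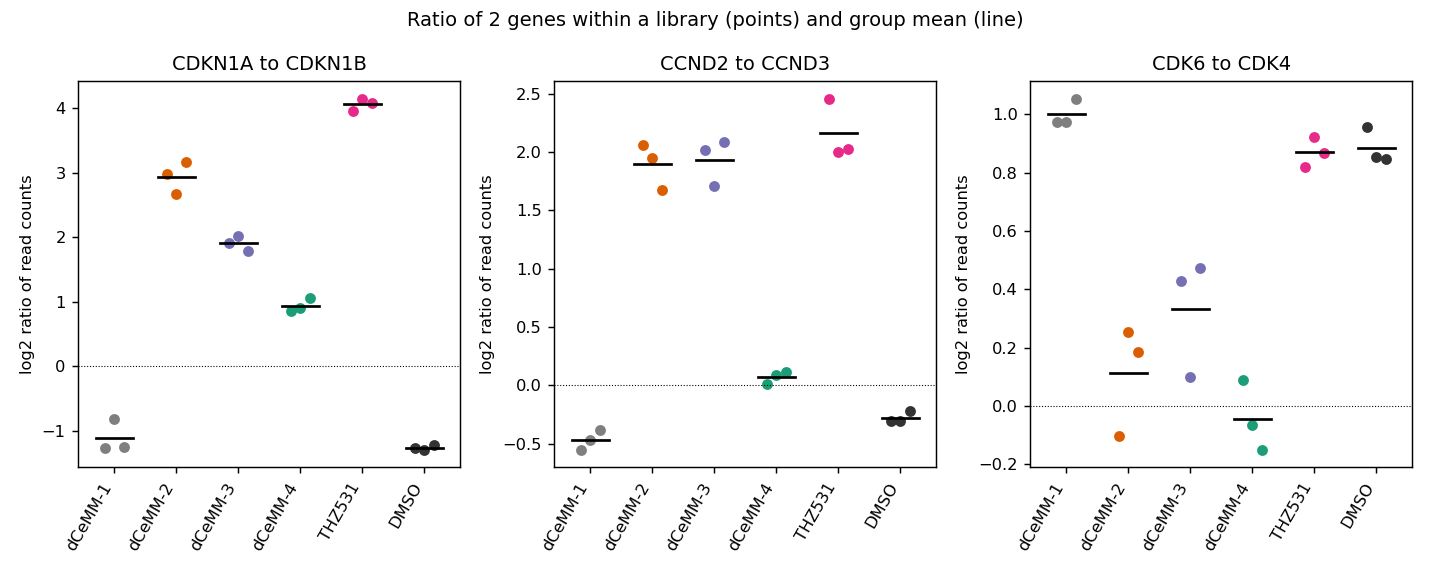
Log2 ratio of read counts of 2 genes within each library, by group, with points for libraries, a line for the group mean and a dotted line at equal counts. CDKN1A to CDKN1B lies at 3.95 to 4.15 with THZ531, against -1.29 to -1.21 with DMSO, and CDK6 to CDK4 with THZ531 overlaps with DMSO.

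The other genes of the pathway were described by a list of 39, chosen with earlier results of these data known, all of which passed the filter. On the TMM scale 10 rose and 11 fell with dCeMM-1, 9 rose and 27 fell with dCeMM-2, 8 rose and 31 fell with dCeMM-3, 19 rose and 11 fell with dCeMM-4, and 11 rose and 26 fell with THZ531. Among all genes 16.4% rose and 14.8% fell with dCeMM-1, 37.2% and 41.1% with dCeMM-2, 36.0% and 45.1% with dCeMM-3, 32.9% and 35.3% with dCeMM-4, and 35.7% and 43.7% with THZ531. The median log2 change of the list was -0.066, -0.72, -1.31, 0.22 and -1.02 with the 5 compounds in that order, against 0.028, -0.023, -0.15, 0.0054 and -0.095 for all genes. Spike-in scaling gave 2 higher and 1 lower with dCeMM-1 (2.82% and 1.32% of all genes), 1 and 37 with dCeMM-2 (1.49% and 83.0%), 0 and 38 with dCeMM-3 (1.14% and 83.8%), 3 and 15 with dCeMM-4 (6.27% and 48.0%), and 0 and 38 with THZ531 (1.32% and 84.7%).

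Of the 10 E2F and DP factors, which control S-phase genes, 3 rose and 3 fell with dCeMM-1 on the TMM scale, 1 rose and 8 fell with dCeMM-2, 2 and 8 with dCeMM-3, 3 and 4 with dCeMM-4, and 2 and 7 with THZ531. Of all genes 14.8%, 41.1%, 45.1%, 35.3% and 43.7% fell in these comparisons. With spike-in scaling 1 rose and 0 fell with dCeMM-1, 1 rose and 5 fell with dCeMM-4, and all 10 fell with dCeMM-2, dCeMM-3 and THZ531, where 83.0%, 83.8% and 84.7% of all genes fell. E2F5, a repressor-type E2F, had 31.4, 34.3 and 32.4 in dCeMM-1, 2.60, 2.99 and 1.91 in dCeMM-2, 5.13, 4.46 and 6.44 in dCeMM-3, 4.35, 5.10 and 4.88 in dCeMM-4, 2.13, 2.81 and 2.05 in THZ531 libraries, against 40.7, 36.4 and 40.1 in DMSO libraries (TMM-scaled CPM). Its log2 fold change was -3.91, -2.85, -3.02 and -4.06 with dCeMM-2, dCeMM-3, dCeMM-4 and THZ531, and -0.25 with dCeMM-1, all past the threshold, and on the spike-in scale all but the dCeMM-1 value passed. E2F3, an activator, fell with dCeMM-2 (-2.33), dCeMM-3 (-2.86) and THZ531 (-2.45) and rose with dCeMM-4 on the TMM scale (0.37), where the spike-in value of -0.19 did not pass. Of the 6 cyclins E and A, their kinases and the phosphatase CDC25A, 3 rose and 0 fell with dCeMM-1 on the TMM scale, 1 rose and 4 fell with dCeMM-2, 1 and 5 with dCeMM-3, 4 and 0 with dCeMM-4, and 1 and 5 with THZ531. Of all genes 32.9% rose with dCeMM-4. With spike-in scaling 1 rose and 0 fell with dCeMM-1, 0 passed with dCeMM-4, and all 6 fell with dCeMM-2, dCeMM-3 and THZ531 (83.0%, 83.8% and 84.7% of all genes). CDC25A, which activates CDKs, fell by 3.82 log2 with dCeMM-3 (adjusted p = 3.93e-25) and by 2.67 log2 with THZ531 (adjusted p = 2.73e-22).

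RB1, a target of the cyclin D kinases, moved in opposite directions between the cyclin K degraders on the TMM scale. Of the 3 pocket proteins RB1, RBL1 and RBL2, 2 rose and 1 fell with dCeMM-2 and with dCeMM-3. All 3 fell with dCeMM-4. Of all genes 37.2%, 36.0% and 32.9% rose and 41.1%, 45.1% and 35.3% fell in these comparisons. RB1 had 169, 168 and 185 in dCeMM-1, 184, 219.7 and 204 in dCeMM-2, 275, 251 and 302 in dCeMM-3, 55.9, 42.5 and 46.3 in dCeMM-4, 243, 225 and 210.1 in THZ531 libraries, against 174, 151 and 155 in DMSO libraries (TMM-scaled CPM). The log2 fold change was -1.73 (SE 0.090, adjusted p = 2.79e-17) with dCeMM-4, 0.34 (SE 0.085, adjusted p = 6.78e-04) with dCeMM-2 and 0.78 (SE 0.085, adjusted p = 4.85e-10) with dCeMM-3. All 3 were falls against the spike-in, of -2.32, -1.43 and -1.02. MYC, a known repressor of CDKN1A and activator of CCND2, had 587, 586 and 588 in dCeMM-1, 489, 491 and 445 in dCeMM-2, 16.6, 16.9 and 17.6 in dCeMM-3, 722, 799 and 705 in dCeMM-4, 292, 269 and 283 in THZ531 libraries, against 777, 837 and 791 in DMSO libraries (TMM-scaled CPM). The dCeMM-3 libraries stood apart below all others, and the TMM log2 fold change was -5.56 (SE 0.080, adjusted p = 5.83e-32), beside -1.51 with THZ531, -0.75 with dCeMM-2, -0.45 with dCeMM-1 and -0.11 with dCeMM-4, the last not past the threshold. On the spike-in scale MYC did pass with dCeMM-4, where the median of all genes was -0.56 log2. It had 751, 1257 and 1022 spike-in scaled CPM in dCeMM-4 libraries, against 1340, 1798 and 1705 in DMSO libraries. FOXO1, a known activator of CDKN1B transcription, rose with dCeMM-2 (2.41 on the TMM scale, 0.67 on the spike-in scale) and dCeMM-4 (2.14 and 1.60) and fell with dCeMM-3 (-1.33 and -3.12). CDKN2A, an INK4 gene outside the group described here, rose with dCeMM-2 (1.60), dCeMM-3 (1.52), dCeMM-4 (0.63) and THZ531 (1.60) on the TMM scale, while its spike-in values of -0.19, -0.30, 0.069 and -0.25 did not pass. With dCeMM-1 the list's lowest adjusted p-values were those of CCNH (-0.73), the cyclin of the CDK-activating kinase, CDK2 (0.61), MYC and CCNE2 (0.64). Of these, CCNH and CCNE2 passed on the spike-in scale too. In that comparison 623 of all genes passed on the spike-in scale, and 14 at 12 degrees of freedom per gene. Whether CCNH and CCNE2 are among the 14 was not examined.

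**Figure D5:**
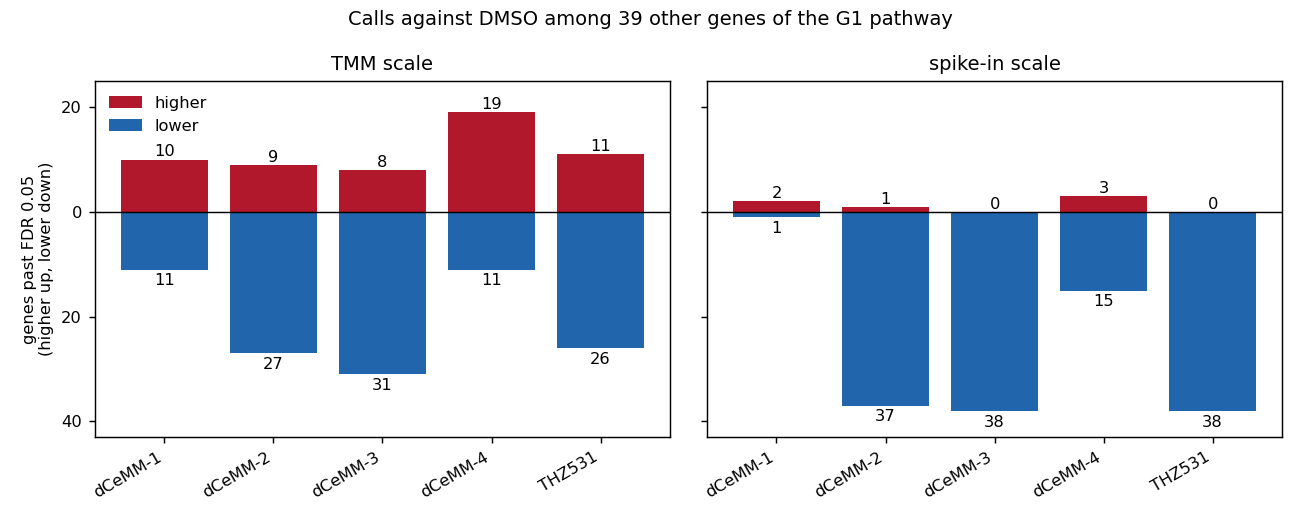
Number of the 39 other pathway genes past the threshold against DMSO, with genes that rose above the line and genes that fell below it, on the TMM scale (left) and the spike-in scale (right). The TMM counts are 9 and 27 with dCeMM-2, 8 and 31 with dCeMM-3 and 19 and 11 with dCeMM-4.

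Between the compounds the list gave, for dCeMM-2 over dCeMM-3, 19 higher and 8 lower on the TMM scale (26.6% and 16.4% of all genes) and 14 and 1 with spike-in scaling (18.4% and 4.34%). The genes with the lowest adjusted p were MYC (4.80, 95% interval 4.63 to 4.97), FOXO1 (3.74, 95% interval 3.47 to 4.01), CDC25A (2.31, 95% interval 2.05 to 2.56) and AMBRA1 (2.95, 95% interval 2.58 to 3.32), whose product directs the breakdown of D-type cyclins. dCeMM-2 over dCeMM-4 gave 10 higher and 27 lower (38.5% and 38.9% of all genes), and dCeMM-3 over dCeMM-4 gave 9 higher and 27 lower (41.6% and 41.1%), which became 1 and 36 (2.68% and 66.9%), and 2 and 34 (5.36% and 65.3%), with spike-in scaling. RB1 was among the higher in both, by 2.07 (95% interval 1.87 to 2.27) and 2.52 (95% interval 2.32 to 2.71) log2, and against the spike-in by 0.89 and 1.30.

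Genes whose TMM log2 CPM ran most like that of each member over the 18 libraries were named by Pearson's r among 10492 protein-coding genes, as a description without a p, since the libraries share groups and scaling. For CDKN1A they were MT1E (r = 0.989), IER5L (r = 0.985) and KLF10 (r = 0.982). MT1E is a metallothionein, whose reads may be divided among near-identical paralogs, and it averaged 952 ± 11.6 CPM with dCeMM-2 and 931 ± 21.5 with THZ531, against 167 ± 13.3 with DMSO (SD, n = 3). For CDKN1B the nearest was MYC (r = 0.981), for CDKN1C PTTG1IP (r = 0.975), for CDKN2C VEZF1 (r = 0.992) and for CDKN2D KLF5 (r = 0.979). For the cyclins they were ARNTL2 (CCND1, r = 0.919), TSPAN3 (CCND2, r = 0.964) and HSPA4 (CCND3, r = 0.992), and for the kinases RUVBL2 (CDK4, r = 0.955) and IDE (CDK6, r = 0.941). Among the members themselves r ran to 0.894 for CDKN2C with CCND3 at the high end and to -0.899 for CDKN2C with CCND2 at the low end, and CDKN1A with CDKN1B gave 0.052.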

How the data were processed

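The authors deposited 1 table of read counts per library, raw and not normalized, for 58051 gene identifiers, 92 ERCC and 7 SIRV spike-in rows and 5 summary rows. Per the labels, libraries were poly(A)-enriched and made with a CORALL Total RNA-Seq kit. The submitters' processing notes name the counter HTSeq 0.11.2, the aligner STAR 2.5.2b, the trimmer Trimmomatic 0.32, Picard, and 2 builds, GRCh38.p7 and hg38. The strand setting and any use of molecular identifiers are not given in the sources used here. Summary rows were left out of library sizes: reads placed at several sites were 27.0 to 44.3% of all rows' counts, reads outside genes 4.43 to 9.05% and ambiguous reads 1.08 to 1.47%.

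Of the identifiers, 57447 matched GENCODE 29, which gave the symbols, and 604 did not. No 2 libraries held identical counts. edgeR 4.0.16 (R 4.3.3) was fitted to all 18 libraries over the 15055 genes kept by its filter on low counts, once with TMM factors and once with library sizes from the spike-in counts. Contrasts used the quasi-likelihood test with Benjamini-Hochberg adjustment over all genes tested at 0.05, and 95% intervals used 12 degrees of freedom. The spike-in fit pools an error shared by all genes, so its p-values are too small, and 12 degrees of freedom per gene were tried as an alternative chosen after seeing the data. Other alternatives were DESeq2 1.42.0, its size factors in edgeR, no filter, a replicate block, fits of 2 groups, ERCC or SIRV alone, a pseudocount of 1 count for ratios, and leaving out each library. The edgeR fit with TMM factors, though not the one with spike-in library sizes, was tested on simulated data. Deviations of libraries with the same replicate number correlated at -0.144 to 0.125 and in no comparison above 0.1 for all 3, so the numbers were not taken as pairs. Ratios of counts were compared with exact two-sided permutation tests (scipy 1.17.1). The members, the pathway list and the marker lists were chosen with earlier results of these data known. All 10 members are named in every comparison, and of the pathway list up to 4 genes with the lowest adjusted p, besides genes named for a contrast with other compounds.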

Additional observations from a re-analysis of the deposited data

How the results depend on the processing

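Of the members' fold changes, 47 of 960 values with 1 library left out and 30 of 800 under the other settings changed their call or sign, while the number of members called stayed within 1.5 times under all 176 settings. With no filter on low counts, besides the calls given above, those of CCND3 with dCeMM-1 (-0.21), CCND1 with dCeMM-3 (0.28), CDKN2D with THZ531 against the spike-in (-0.59), CCND2 (-0.20) and CDK4 (-0.17) between dCeMM-2 and dCeMM-3, CDKN2D between dCeMM-2 and dCeMM-4 (0.27), and CCND2 between dCeMM-3 and dCeMM-4 against the spike-in (-0.50) were lost. The replicate block moved 1 call, that of CCND3 between dCeMM-2 and dCeMM-3 (-0.18), which passed. DESeq2-type size factors let CCND3 pass there too (-0.26), and fits of THZ531 and DMSO alone lost CDK4 (-0.036) and CDK6 (-0.052), as DESeq2 did (-0.0100 and -0.025). ERCC alone let CCND2 with dCeMM-4 pass (-0.49).

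Values near 0 changed sign. With 1 library left out, the log2 ratio of CDKN1A to CDKN1B with dCeMM-1 ranged over -0.0031 to 0.22 and that of CDK6 to CDK4 with THZ531 over -0.042 to 0.020. On the TMM scale the ranges were -0.033 to 0.044 for CDK4 with dCeMM-2 (-0.066 with no filter), -0.054 to 0.26 for CCND1 with THZ531, and -0.093 to 0.088 for CDKN1B between dCeMM-2 and dCeMM-4 (-0.087 with no filter, -0.033 with DESeq2 and with its size factors). CDKN1B with dCeMM-4 was 0.012 with DESeq2 and with its size factors. On the spike-in scale they were -0.15 to 0.091 for CDKN1C with THZ531 and -0.19 to 0.30 for CCND1 between dCeMM-3 and dCeMM-4.

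The count of all genes called with dCeMM-1 on the spike-in scale, 623, became 348 with no filter, 14 at 12 degrees of freedom per gene and 227 to 356 with 1 library left out. The causes were not tested, except that fewer libraries and fewer degrees of freedom give less power by construction. Counts of 7 to 73 reads limit CDKN1C. Low counts also occur for CDKN2D, with 16 reads in DMSO replicate 3 and 37, 25 and 31 in dCeMM-3 libraries. CCND1 had 29 reads in DMSO replicate 3.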
